A study of Bos taurus with 179 samples.

Results

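Bovine oocytes of 70-79 μm were compared with the size groups on either side of them, 60-69 μm and 80-89 μm, in order to find transcripts whose level peaked or dipped for a short stretch of growth. Oocytes were single cells of Bos taurus, dissected from abattoir ovaries in a medium that held heparin and cilostamide, a phosphodiesterase inhibitor, given no treatment that differed between groups in the labels, measured, and sequenced one by one after capture of their polyadenylated RNA on oligo-dT beads and amplification. Of 179 oocytes in the series, 14 are not listed by the study as kept and were left out, and 23 of the rest (16 in library replicate 1, 7 in replicate 2) measured 70-79 μm. The neighbours were 25 oocytes of 60-69 μm (17 and 8) and 24 of 80-89 μm (16 and 8). Replicate 1 was read at 150 bp and replicate 2 at 75 bp, so the replicate is a sequencing batch, and it entered each joint fit as a block. The labels give a diameter for every oocyte but name no animal, so p-values measure the spread between these libraries, some of which may share an ovary.

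Growing oocytes transcribe and store the messenger RNA, proteins and organelles on which meiosis and the first cleavages depend, while the follicle around them passes from the secondary to the early antral stage. Mitochondria multiply during this phase. The respiratory chain they hold ends in cytochrome c oxidase, which passes electrons to oxygen, and ATP synthase uses the proton gradient to make ATP. Both enzymes join a few subunits encoded in the mitochondrial genome with many small ones encoded in the nucleus. Oligo-dT capture reads only polyadenylated RNA, and less RNA cannot be told apart from RNA with a shorter tail.

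Total counts ran from 431855 to 7427594 per 70-79 μm oocyte, with a median of 1839094, against medians of 2439789 at 60-69 μm and 1862627 at 80-89 μm. A permutation test within replicate gave a two-sided adjusted p of 0.457 for the total count against 60-69 μm, over 6 comparisons of totals and detected genes. The number of genes with at least 1 count had a median of 12148 in the 70-79 μm group, against 12165 and 12189 in the smaller and the larger neighbour. The deepest 70-79 μm oocyte, in replicate 1, stood apart. The next deepest had 3288256 counts, and the deepest alone made up 21.9% of the summed counts of its group and replicate, and detected the fewest genes of its group when each oocyte was thinned to 250000 counts, 8424 against a median of 10152. Calls of genes with a symbol that were lost without it are named as such.

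The cells carried the RNA of oocytes. The 4 oocyte markers that could be paired with a gene ID (BMP15, BTG4, BCAR4 and ACTL8) summed to a median of 4805 CPM (counts scaled to a library total of 1000000) at 70-79 μm in replicate 1 and 5500 CPM in replicate 2, within a range of 3230 to 7224 CPM. Most of this came from BTG4 and BMP15, with medians of 3371 and 1248 CPM over both replicates. BCAR4 had a median of 59.3 CPM and ACTL8 of 2.90 CPM, with an ACTL8 count in 15 of 23 oocytes. The 5 paired granulosa cell markers summed to between 0 and 13.3 CPM in the 70-79 μm oocytes and to at most 26.0 CPM in the neighbours. COL1A1 and DCN, markers of stroma, and CDH5 and C1QB, markers of vessels and macrophages, had no count in any 70-79 μm oocyte. ACTA2 and CNN1 of smooth muscle had a count in all 23, COL1A2 and COL14A1 in 22 and CD74 in 5. The 7 paired theca and stromal markers summed to between 18.2 and 75.6 CPM there. The 7 endothelial and blood markers summed to between 27.9 and 287.1 CPM, nearly all from CSF1R, which had a count in all 23 oocytes.

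When counts were summed per size group and replicate, few or no transcripts could be called higher or lower at 70-79 μm, depending on the fit. Of 14087 genes tested with edgeR's quasi-likelihood test and Benjamini-Hochberg adjustment, 0 passed an adjusted p of 0.05 (background 0%) for the difference between 70-79 μm and the mean of its neighbours. At an unadjusted p under 0.05 there were 572 genes (4.06%), 334 higher (2.37%) and 238 lower (1.69%). DESeq2 on the same sums called 2 genes (0.0142%), both lower and neither with a symbol, and 675 (4.79%) at the unadjusted threshold. With edgeR on the 6 sums of the 3 groups alone, 5 genes were called, all lower. In edgeR's fit of the 16 sums no gene was called against 60-69 μm alone, against 80-89 μm alone, or between those neighbours, while DESeq2 called 5 (0.0355%), 2 (0.0142%) and 24 (0.17%). Only 2 sums stand behind each group in this test.

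The study took each oocyte as a unit. Fitted that way, with the replicate as a term, edgeR called 75 of 10005 genes (0.75%), and 1153 (11.5%) had an unadjusted p under 0.05. Of these, 63 were lower at 70-79 μm (0.63%) and 12 were higher (0.12%). The median size of the difference was 0.88 on the log2 scale (1.85-fold) for the lower genes, within a range of 0.45 to 1.91, and 0.60 (1.52-fold) for the higher ones, within 0.38 to 0.98. The sums differed in the same direction for all 63 lower and all 12 higher genes, and the 70-79 μm sum lay beyond both neighbours in both replicates for 61 and 12 of them. These sums hold the same oocytes, so they are not separate evidence. Tested against each neighbour on its own, 18 genes were past both (0.18%), 16 below (0.16%) and 2 above (0.02%). Against 60-69 μm alone 179 genes were called (1.79%), and against 80-89 μm alone 95 (0.95%). For comparison, 642 genes (6.42%) differed between 80-89 μm and 60-69 μm, with 0 in replicate 2 alone.

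**Figure D1:**
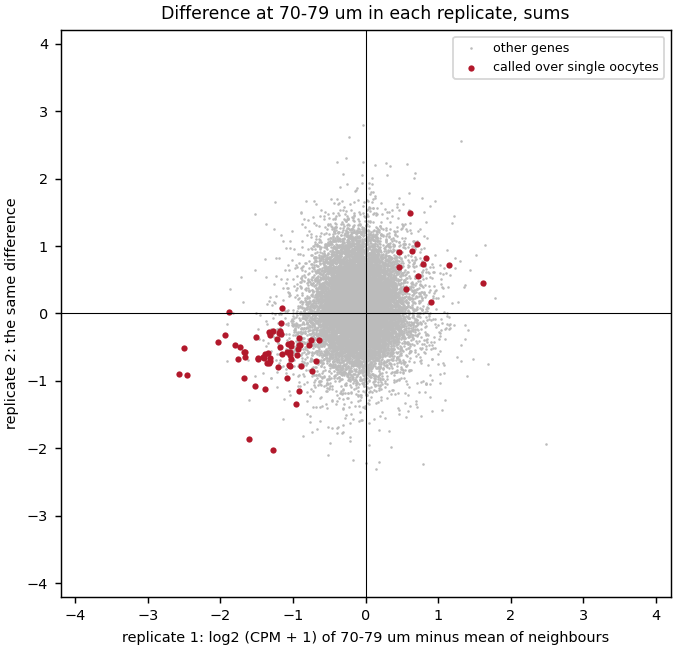
Each point is 1 of 14087 genes: the difference between the 70-79 um sum and the mean of the 60-69 and 80-89 um sums, as log2 of CPM plus 1, in replicate 1 (horizontal) and in replicate 2 (vertical). The 75 genes called over single oocytes, in red, lie below 0 in both replicates for 61 and above 0 in both for 12.

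Fewer genes were called within each replicate than over both. Within replicate 1 alone 18 genes were called (0.187%), 3 higher (0.0311%) and 15 lower (0.156%), and within replicate 2 alone edgeR called 0, with 881 (8.82%) at an unadjusted p under 0.05. Of the 63 lower genes, 34 had an unadjusted p under 0.05 in replicate 2, and of the 12 higher genes, 7. The joint fit that chose them holds the same oocytes, so these counts are a description. Without the deepest 70-79 μm oocyte, 35 genes were called, 31 of the lower and 2 of the higher ones among them. With the total count of each oocyte as a further term, 56 were called, 41 of the lower and all 12 of the higher ones among them. These last fits were added after the values had been seen.

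Only 13 of the 75 genes could be paired with a symbol, 11 lower and 2 higher. They were chosen for their values in that fit. Of the 11 lower genes, 2 encode subunits of cytochrome c oxidase (COX6C and COX7A2) and 2 of ATP synthase (ATP5ME and ATP5F1E). Only 3593 of 21218 gene IDs had a symbol, mostly early in the alphabet, where the names of both families fall. These counts are therefore not a share over all called genes.

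COX6C (ENSBTAG00000014130), a nuclear-encoded subunit of cytochrome c oxidase, had the largest difference of the 13. In replicate 1 the single 70-79 μm oocytes ran from 41.5 to 571 CPM with a median of 223.6, against a median of 596 (51.6 to 1678) at 60-69 μm and 509 (44.6 to 1202) at 80-89 μm. In replicate 2 they ran from 586 to 1279 CPM with a median of 807, against 1246 (872 to 3255) and 1836 (472.6 to 3640). The groups overlapped in both replicates, and 14 of 16 and 6 of 7 oocytes of 70-79 μm lay below the medians of both neighbours. Over single oocytes the log2 difference was −1.23 ± 0.24 (SE; adjusted p = 0.00472, edgeR), a 2.34-fold lower level, and COX6C was past 60-69 μm (adjusted p = 0.0102) and past 80-89 μm (adjusted p = 0.00782) in edgeR's tests. It was −1.32 ± 0.31 within replicate 1 and −1.07 ± 0.39 within replicate 2. In edgeR's test of the 16 sums it was −1.30 ± 0.41 with an adjusted p of 1, and of the 6 sums of the 3 groups alone −1.31 ± 0.22 with an adjusted p of 0.0299.

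ATP5ME, the e subunit in the membrane part of ATP synthase, was the other gene with a symbol that was past both neighbours. Its 70-79 μm oocytes ran from 1.89 to 61.4 CPM in replicate 1, with a median of 17.7, against medians of 36.7 at 60-69 μm and 49.9 at 80-89 μm. In replicate 2 the median was 55.7 CPM (23.5 to 153), against 115 and 105, and 4 of 7 oocytes lay below every neighbouring oocyte. The log2 difference over single oocytes was −1.05 ± 0.24 (adjusted p = 0.0152, edgeR). With every oocyte thinned to 250000 counts it was −0.85 ± 0.26, and the call was lost (adjusted p = 0.0973).

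COX7A2, a further small subunit of cytochrome c oxidase, had medians of 68.4, 50.1 and 83.0 CPM at 60-69, 70-79 and 80-89 μm in replicate 1. In replicate 2 the medians were 130, 103 and 173 CPM, and all 7 oocytes of 70-79 μm lay below the medians of both neighbours. The log2 difference over single oocytes was −0.89 ± 0.20 (adjusted p = 0.0149, edgeR). COX7A2 was past 80-89 μm (adjusted p = 0.00782) and not past 60-69 μm (adjusted p = 0.072) in edgeR's tests. ATP5F1E, the epsilon subunit of ATP synthase, had medians of 218.5, 86.2 and 180.4 CPM in replicate 1 and of 350, 224.7 and 348 CPM in replicate 2. Its log2 difference was −1.10 ± 0.26 (adjusted p = 0.0217, edgeR), and without the deepest 70-79 μm oocyte it was −1.02 ± 0.27, past the threshold no longer (adjusted p = 0.0596).

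**Figure D2:**
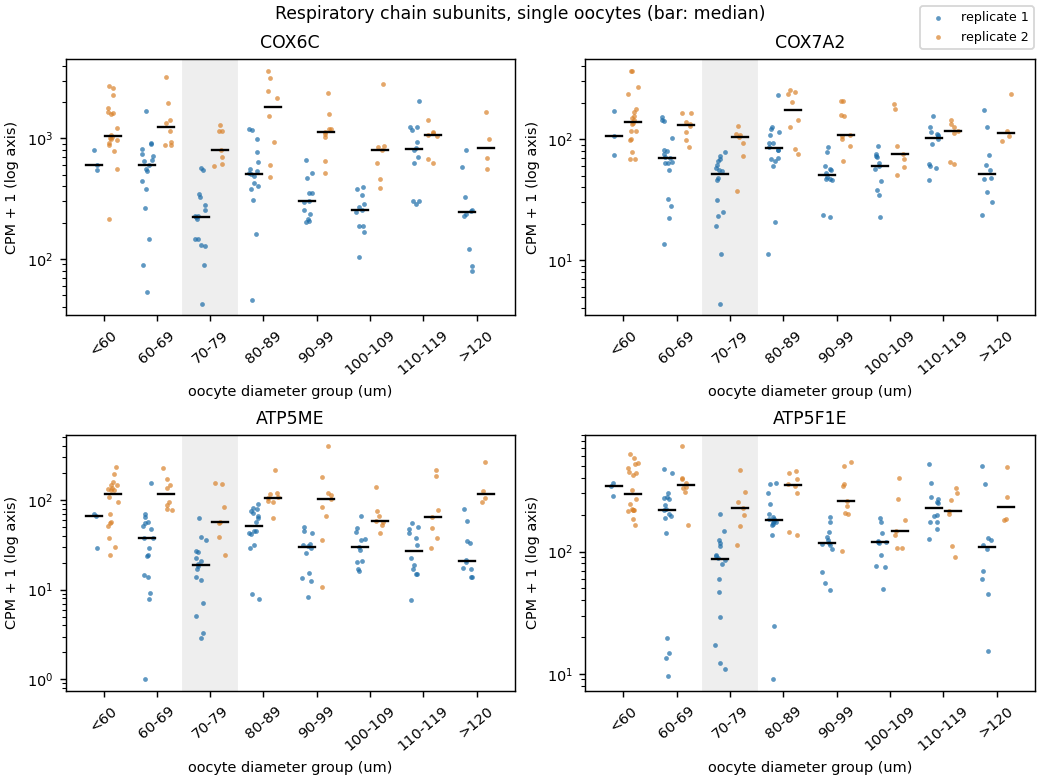
CPM plus 1 (log axis) of COX6C, COX7A2, ATP5ME and ATP5F1E in single oocytes of the 8 size groups, replicate 1 in blue and replicate 2 in orange, with a black bar at each median and the 70-79 um group shaded. The shaded medians lie below both neighbours in both replicates, the points overlap, and replicate 2 lies above replicate 1 for COX6C throughout.

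The 4 genes belong to lists of which most members did not pass the test. Over all lists, 6 of 458 different members tested over single oocytes were called lower and 0 higher, beside 0.75% of all genes. For cytochrome c oxidase, 2 of 10 members were called lower (COX6C, COX7A2), 8 of 10 differences were below 0, and the median was −0.35, against 0.01 over all genes. COX7B (−0.54 ± 0.20), COX8A (−0.39 ± 0.18) and COX5B (−0.31 ± 0.14) were below 0 without passing the adjusted threshold. COX6A1 was at 0.00 ± 0.15, and COX7A2L, which is known for its part in joining respiratory complexes, was at 0.31 ± 0.14. For ATP synthase, 2 of 15 were called lower, 11 of 15 were below 0, and the median was −0.25. The ATP5F1 subunits other than ATP5F1E were at 0.27 ± 0.11 (ATP5F1A), 0.14 ± 0.11 (ATP5F1B), 0.04 ± 0.08 (ATP5F1C) and 0.02 ± 0.15 (ATP5F1D). Among those of the membrane part, ATP5MF was at −0.58 ± 0.19 and ATP5MJ at −0.52 ± 0.22, and ATP5PD of the stalk was at −0.53 ± 0.17. None of these 7 was called. In the sums, the lists' medians were −0.29 and −0.23, against 0.04 over all genes.

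Within replicate 1 the median difference was −0.45 for cytochrome c oxidase and −0.25 for ATP synthase, and within replicate 2 it was −0.13 and −0.23. Without the deepest 70-79 μm oocyte the medians were −0.28 and −0.17. Summed per oocyte, the 25 paired members had medians of 6229, 5348 and 6150 CPM at 60-69, 70-79 and 80-89 μm in replicate 1, and of 7207, 5626 and 7497 CPM in replicate 2. The ranges overlapped, from 3392 to 6492 CPM at 70-79 μm in replicate 1 and from 3697 to 8188 CPM at 80-89 μm.

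The mitochondrial genome could be followed through 4 of its 13 protein genes, and these are too few for a statement on the list. COX1 (−0.47 ± 0.24), COX2 (−0.51 ± 0.20), ATP6 (−0.52 ± 0.15) and ATP8 (−0.45 ± 0.16) were all below 0 over single oocytes, and none was called. ATP6 and ATP8 overlap on the mitochondrial genome, so their reads may be shared. The list of coenzyme Q synthesis, whose enzymes supply the mobile electron carrier of the respiratory chain, had a median of 0.29 in the sums, with 9 of 10 members above 0 and COQ8B at −0.11 ± 0.69. The list had a median of 0.08 within replicate 1 and 0.36 within replicate 2. In the sums, COQ10B (0.52 ± 0.26) and COQ7 (0.41 ± 0.225) had the smallest unadjusted p. None of them was called.

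**Figure D3:**
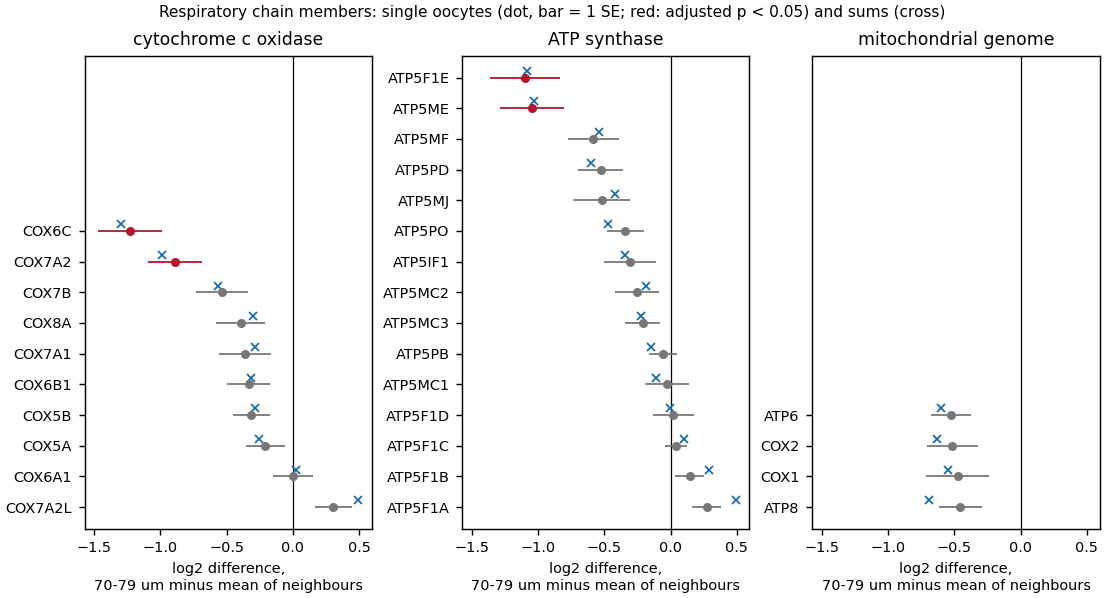
Log2 difference between 70-79 um and the mean of its neighbours for the members of cytochrome c oxidase, ATP synthase and the mitochondrial genome. Dots with a bar of 1 SE are from single oocytes, red where the adjusted p is under 0.05, and crosses are from the sums; COX6C, COX7A2, ATP5ME and ATP5F1E are the 4 red members, and ATP5F1A and COX7A2L lie highest.

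Levels of these genes also varied with depth, and the part of depth in the differences was not tested beyond the fits given here. Across the 49 oocytes of the 3 size groups in replicate 1, log2 COX6C had a Pearson correlation of 0.47 with the log2 total count, and across the 23 of replicate 2 it was 0.58. For ATP5F1E the values were 0.54 and 0.73, for COX7A2 0.42 and 0.57, and for ATP5ME 0.35 and 0.39. These points share the total count, which also divides the CPM. The deepest 70-79 μm oocyte went against the relation, at 41.5 CPM of COX6C and 1.89 CPM of ATP5ME. With the total count as a term, the adjusted p was 0.00721 for COX6C, 0.0347 for COX7A2, 0.0297 for ATP5ME and 0.0453 for ATP5F1E in edgeR's test.

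**Figure D4:**
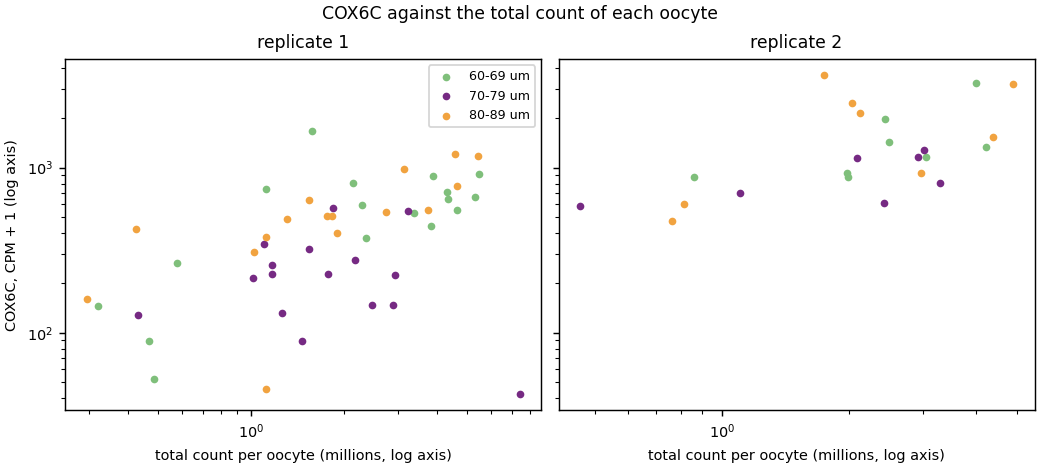
CPM plus 1 of COX6C against the total count of each oocyte (both axes log), in replicate 1 (left) and replicate 2 (right), with the 3 size groups in 3 colours. COX6C is higher in deeper oocytes, the 70-79 um oocytes lie low within the range of their neighbours, and the deepest of them, at 7427594 counts, is the lowest point of the left panel.

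CHCHD7 and CCDC90B, also called lower, encode mitochondrial proteins. CHCHD7, a small protein of the intermembrane space, had medians of 102, 76.8 and 192 CPM at 60-69, 70-79 and 80-89 μm in replicate 1 and of 147.8, 162 and 260 CPM in replicate 2. It differed from 80-89 μm but not detectably from 60-69 μm, and its neighbours differed from each other (adjusted p = 0.0106, edgeR). Its difference of −0.68 ± 0.16 (adjusted p = 0.0219, edgeR) was −0.63 ± 0.17 without the deepest 70-79 μm oocyte, where the call was lost (adjusted p = 0.067), and it was also lost when thinned (adjusted p = 0.0605). CCDC90B, a coiled-coil protein of mitochondria, had medians of 36.4, 17.4 and 28.5 CPM in replicate 1 and of 59.5, 44.7 and 80.3 CPM in replicate 2, with a log2 difference of −0.85 ± 0.21 (adjusted p = 0.0219, edgeR). When thinned it was −0.79 ± 0.22, and the call was lost (adjusted p = 0.0588). Outside the calls, CMC2, an assembly factor of cytochrome c oxidase, had a sum difference of −0.95 ± 0.32. Its medians were 12.7, 15.4 and 26.5 CPM in replicate 1, where 5 of 16 oocytes of 70-79 μm lay below both neighbours' medians and 1 oocyte of 60-69 μm reached 160.5 CPM. In replicate 2 the medians were 26.3, 9.10 and 13.8 CPM, and 4 of 7 oocytes of 70-79 μm lay below both neighbours' medians.

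CENPS, a histone-fold protein of the centromere that also acts in DNA repair, was called lower at 70-79 μm with single oocytes as units. In replicate 1 its oocytes ran from 12.5 to 120 CPM with a median of 65.1, against 138 (47.1 to 295.9) at 60-69 μm and 81.0 (54.3 to 195) at 80-89 μm. In replicate 2 they ran from 71.4 to 223 CPM with a median of 134, against 221.3 and 226.7. Of the 70-79 μm oocytes, 4 of 16 in replicate 1 and 1 of 7 in replicate 2 lay below all neighbouring oocytes. The log2 difference was −0.97 ± 0.20 over single oocytes (adjusted p = 0.00589, edgeR) and −1.01 ± 0.31 in the sums, where it was not called. In edgeR's tests over single oocytes CENPS was past 60-69 μm (adjusted p = 0.0018) and not past 80-89 μm (adjusted p = 0.0541). It was the 1 member called of 23 in the kinetochore and centromere list, whose median was −0.02. Over single oocytes CENPX, its partner in the same complex, was at 0.16 ± 0.21, and AURKB, the kinase of the chromosomal passenger complex, at 0.43 ± 0.16.

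ALKBH1, a demethylase of nucleic acids, lay below the medians of both neighbours in all 16 oocytes of replicate 1 and all 7 of replicate 2. Its medians were 128.1, 73.0 and 122 CPM in replicate 1 and 440.5, 298.2 and 383.5 CPM in replicate 2, and the difference was −0.88 ± 0.21 (adjusted p = 0.0188, edgeR). AGBL5, which removes glutamate branches from tubulin, had medians of 50.6, 30.3 and 44.9 CPM in replicate 1 and of 75.7, 59.6 and 66.0 CPM in replicate 2, with a difference of −0.61 ± 0.13 (adjusted p = 0.0112, edgeR). CHPT1, which makes phosphatidylcholine, was the most abundant of the 13, with medians of 951, 543 and 640 CPM in replicate 1. Its difference of −0.64 ± 0.16 passed over all oocytes, and without the deepest one it was −0.63 ± 0.16 and did not pass (adjusted p = 0.0563, edgeR). BAG3, an HSP70 co-chaperone, was at −0.67 ± 0.18 (adjusted p = 0.0482, edgeR). The call was lost without that oocyte, at −0.60 ± 0.18 (adjusted p = 0.129), and with the total count as a term, at −0.66 ± 0.18 (adjusted p = 0.071).

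The 2 higher genes with a symbol were CEP43, a protein of the centriole, and CA2, the cytosolic carbonic anhydrase. CEP43 had medians of 184, 236 and 206 CPM at 60-69, 70-79 and 80-89 μm in replicate 1 and of 100.3, 130.7 and 97.2 CPM in replicate 2. All 7 oocytes of 70-79 μm in replicate 2, and 12 of 16 in replicate 1, lay above the medians of both neighbours. The difference was 0.50 ± 0.12 (adjusted p = 0.0152, edgeR). CEP43 was past 60-69 μm (adjusted p = 0.023) and not past 80-89 μm (adjusted p = 0.0605) in edgeR's tests. CA2 had medians of 96.0, 145.9 and 140.5 CPM in replicate 1 and of 57.1, 116 and 71.4 CPM in replicate 2. It was past 60-69 μm (adjusted p = 0.00243) and not past 80-89 μm (adjusted p = 0.453) in edgeR's tests. Its neighbours also differed from each other (adjusted p = 0.0255, edgeR), and its difference from their mean was 0.60 ± 0.15 (adjusted p = 0.0228, edgeR). Both calls were lost without the deepest 70-79 μm oocyte in edgeR's test. CEP43 was then at 0.36 ± 0.10 (adjusted p = 0.0729) and CA2 at 0.45 ± 0.14 (adjusted p = 0.131). When thinned, both also missed the threshold in edgeR's test, CEP43 at 0.42 ± 0.12 (adjusted p = 0.0726) and CA2 with an adjusted p of 0.0779.

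**Figure D5:**
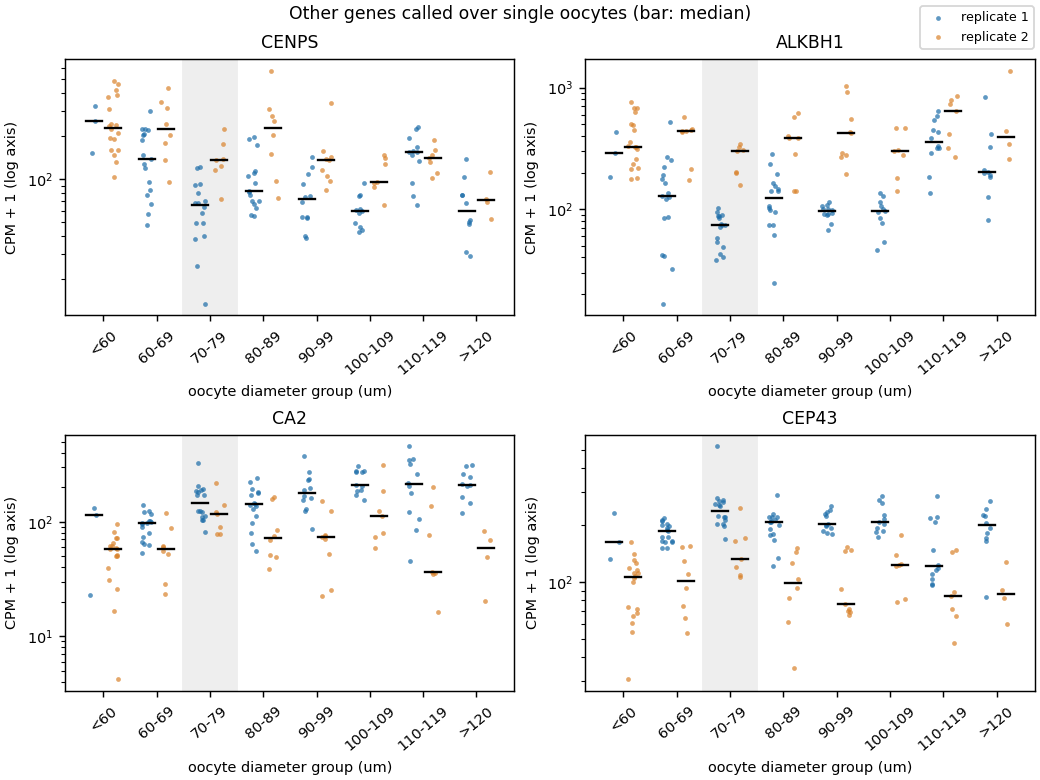
CPM plus 1 (log axis) of CENPS, ALKBH1, CA2 and CEP43 in single oocytes of the 8 size groups, replicate 1 in blue and replicate 2 in orange, with a black bar at each median and the 70-79 um group shaded. CENPS and ALKBH1 have shaded medians below both neighbours, and CA2 and CEP43 above both, in each replicate, with overlapping points.

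Of the 13 genes, COX6C, CENPS, AGBL5, COX7A2 and ALKBH1 were also called in each of 3 further fits: without the deepest 70-79 μm oocyte, with the total count as a term, and with every oocyte thinned to 250000 counts. These fits were added after the values had been seen. They hold oocytes of the fit that chose the genes, so they are not separate evidence. COX6C and CENPS were the 2 called within replicate 1 alone. None of the 13 was called within replicate 2 alone.

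The other 62 called genes could not be paired with a symbol here. The largest peak belonged to ENSBTAG00000026085, which had medians of 14215, 24544 and 14977 CPM in replicate 1 and of 4948, 7035 and 4025 CPM in replicate 2. All 16 oocytes of 70-79 μm in replicate 1 lay above the medians of both neighbours, and 5 of 7 in replicate 2. Its difference was 0.98 ± 0.19 (adjusted p = 0.0047, edgeR), and 0.0454 was the adjusted p without the deepest oocyte. ENSBTAG00000018813 was at 0.68 ± 0.15. The lower genes without a symbol that had the smallest adjusted p were ENSBTAG00000049833 (−1.64 ± 0.28, adjusted p = 0.000806, edgeR) and ENSBTAG00000015156 (−1.60 ± 0.28). ENSBTAG00000049833 had medians of 122, 38.9 and 138 CPM in replicate 1 and of 1333, 817 and 1457 CPM in replicate 2, and all 23 oocytes lay below the medians of both neighbours.

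None of the 4 paired genes of the list of 24 maternal-effect and oocyte genes was called, and the other 20 were not analysed here. BMP15, a growth factor that the oocyte secretes to its granulosa cells, had medians of 876, 1248 and 1104 CPM at 60-69, 70-79 and 80-89 μm in replicate 1 and of 830, 906 and 679 CPM in replicate 2, with a sum difference of 0.38 ± 0.34, which was −0.07 without the 70-79 μm sum of replicate 1. BTG4, an adaptor for the decay of maternal messenger RNA, was at 0.24 ± 0.29 and BCAR4, an oocyte transcript of cattle, at −0.58 ± 0.23, the lowest of the 4. Part of that list was named by the study from these samples, so it is not independent evidence of a direction. BMP1, a protease of the BMP and activin list, was at 1.03 ± 1.00. ARRDC2, an arrestin-domain protein, had medians of 25.6, 36.6 and 48.9 CPM in replicate 1 and of 13.9, 27.4 and 16.9 CPM in replicate 2, so that its median was highest at 80-89 μm in replicate 1 and at 70-79 μm in replicate 2. Its sum difference was 0.36 ± 0.36, and −0.29 without the 70-79 μm sum of replicate 2. CTSC, a lysosomal cathepsin, was at 0.06 ± 0.30, and −0.16 over single oocytes. CALB1, a calcium-binding protein, was at −0.28 ± 0.58, with medians of at most 8.80 CPM in the 3 groups. It was at 0.46 without the 70-79 μm sum of replicate 2, at 0.74 without the 60-69 μm sum of replicate 2, at 0.69 within replicate 1 and at 2.00 with both flank groups on each side.

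Among genes with a symbol, those with the smallest unadjusted p in the sums were ASF1B, ADSL, CDC20, CEP43, CLYBL and CCNQ on the higher side, and none of them was called in the sums. ASF1B, a histone chaperone, had sums of 393.9, 526.4 and 471.7 CPM at 60-69, 70-79 and 80-89 μm in replicate 1 and of 61.3, 160 and 57.8 CPM in replicate 2, a difference of 0.90 ± 0.27. Over single oocytes ASF1B was at 0.25 ± 0.12 within replicate 1 and at 1.10 ± 0.42 within replicate 2. ADSL, an enzyme of purine synthesis, was at 0.69 ± 0.21, CLYBL, a mitochondrial lyase, at 0.78 ± 0.26, and CCNQ, a cyclin that partners CDK10, at 0.67 ± 0.22. Over single oocytes CCNQ differed from 60-69 μm (adjusted p = 0.0126, edgeR) and not detectably from 80-89 μm (adjusted p = 0.912), and those neighbours differed (adjusted p = 0.00983). On the lower side they were CENPS, COX7A2, COX6C, ATP5ME, CMC2 and IL23R. IL23R, a cytokine receptor, had 0 counts in both 70-79 μm sums, which allows up to 0.0885 and 0.196 CPM, and between 0.193 and 0.953 CPM in the neighbouring sums. It also had no count in most neighbouring oocytes, 16 of 17 and 6 of 8 at 60-69 μm and 12 of 16 and 6 of 8 at 80-89 μm.

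Among listed regulators of the cell cycle, CENPS was the 1 member called with single oocytes as units, and CDC23 was called in some of the further fits. Of 51 cyclins, CDKs and CDK inhibitors in the sums, 0 were called, and the median was 0.08. CCNK, the cyclin of a transcription kinase, was at −0.78 ± 0.26 and CDK2, a kinase of the entry into S phase, at 0.48 ± 0.23. The anaphase promoting complex, which ends metaphase by marking cyclin B and securin for decay, had a median of 0.07 over 13 members, with its activator CDC20 at 0.81 ± 0.255 and its subunit CDC23 at 0.82 ± 0.29. Over single oocytes CDC20 was at 0.50 ± 0.17, with 0.23 ± 0.12 within replicate 1 and 1.03 ± 0.45 within replicate 2. CDC23 had medians of 247.8, 311.6 and 201.2 CPM at 60-69, 70-79 and 80-89 μm in replicate 1 and of 96.0, 168.8 and 82.9 CPM in replicate 2, and 15 of 16 and 7 of 7 oocytes of 70-79 μm lay above the medians of both neighbours. Its single-oocyte difference was 0.51 ± 0.14 (adjusted p = 0.0654, edgeR). It passed with the total count as a term, at 0.55 ± 0.13 (adjusted p = 0.0207), and when thinned, at 0.58 ± 0.15 (adjusted p = 0.0241), and did not pass without the deepest 70-79 μm oocyte (adjusted p = 0.114). Centrosome genes had a median of −0.09 over 26 members, with CCP110 at −0.59 ± 0.30 and CEP85 at −0.51 ± 0.26. The DNA damage checkpoint had a median of −0.03 over 16 members, with CLSPN at −0.58 ± 0.25 and APTX at 0.41 ± 0.26. Chromatin readers and remodelers had a median of −0.02 over 43 members, with BRD9 at 0.60 ± 0.27 and BRDT at 0.89 ± 0.49.

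In the lists of messenger RNA tails and of protein folding, BAG3 was the 1 member called over single oocytes. The CCR4-NOT and BTG list, which shortens poly(A) tails, had a median of −0.01 over 13 members, with CNOT8 at 0.60 ± 0.26 and BTG1 at −0.50 ± 0.30. The polyadenylation and CPEB list had a median of 0.16 over 12 members, with CSTF2 at 0.50 ± 0.26 and CPSF3 at 0.42 ± 0.24. The chaperonin CCT, which folds actin and tubulin, had a median of 0.28 over 7 members in the sums and of 0.04 over single oocytes, with CCT5 at 0.44 ± 0.22 and CCT7 at 0.52 ± 0.28 in the sums. The HSP70 and HSP90 co-chaperones had a median of −0.02 over 12 members, with BAG2 at 0.29 ± 0.21. No heat shock protein of the list could be paired.

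In the lists of transport, cytoskeleton and protein turnover no paired member was called over single oocytes or in the sums. Medians in the sums were 0.13 for the COPI coatomer (8 members, ARF1 0.44 ± 0.24, COPG1 0.41 ± 0.30) and 0.05 for clathrin and its adaptors (25 members, AP3D1 0.43 ± 0.27, AP2A2 0.51 ± 0.32). Within replicate 1 COPG1 and AP2A2 were both at −0.02. The Arp2/3 complex, which branches actin, had a median of 0.03 over 10 members, with ARPC3 at −0.44 ± 0.24 and ARPC5 at 0.30 ± 0.23. Cadherins and catenins had a median of 0.06 over 14 members, with CTNNA3 at −0.60 ± 0.30 and CDH1 at 0.365 ± 0.24. ESCRT-III, which cuts membrane necks, had a median of −0.02 over 9 members, with CHMP7 at 0.58 ± 0.24 and CHMP2A at 0.38 ± 0.22. Cullins, the scaffolds of ubiquitin ligases, had a median of 0.09 over 10 members, with CUL4A at 0.63 ± 0.32 and CAND1 at −0.52 ± 0.28. The COP9 signalosome had a median of 0.16 over 9 members, with COPS9 at −0.37 ± 0.28 and COPS6 at 0.29 ± 0.22.

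The lists of acyl-CoA and citrate metabolism, V-ATPase, cathepsins, autophagy, cell death and calcium proteins had no paired member called in either fit. Acyl-CoA and citrate metabolism had a median of 0.21 over 32 members, 26 of them above 0, with ACO1 at 0.58 ± 0.25 and ACADVL at 0.64 ± 0.39. ACO1, a cytosolic aconitase, was called when single oocytes were thinned (0.53 ± 0.14, adjusted p = 0.0296, edgeR). The V-ATPase, which acidifies organelles, had a median of 0.14 over 17 members, with ATP6V1B1 at 0.75 ± 0.43 and ATP6V0A4 at 0.42 ± 0.38. Cathepsins had a median of 0.13 over 10 members, with CTSD at −0.60 ± 0.33 and CTSO at 0.61 ± 0.43. Autophagy genes had a median of 0.13 over 17 members, with ATG7 at 0.33 ± 0.22 and ATG101 at 0.29 ± 0.25, or −0.01 without the 70-79 μm sum of replicate 2. The BCL2 family and caspases had a median of 0.07 over 24 members, with CASP1 at −0.59 ± 0.26 and BNIP3 at 0.60 ± 0.34, or −0.02 without the 70-79 μm sum of replicate 2. Calmodulin and the calcium proteins of the ER had a median of 0.09 over 17 members, with CAMK1 at 0.63 ± 0.36. CAMKK1, a kinase that calmodulin activates, was at 2.86 ± 1.33, and at −0.09 without the 70-79 μm sum of replicate 2. It had no count in 9 of 16 and 5 of 7 oocytes of 70-79 μm, and none in the 8 of 60-69 μm in replicate 2.

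Markers of other cells did not pass the test. GATA4 (0.30 ± 1.25) and HSD17B1 (−0.11 ± 0.55) of granulosa cells, ACTA2 (0.42 ± 0.65) and COL14A1 (0.20 ± 0.40) of theca and stroma, and CSF1R (0.37 ± 0.28) of macrophages lay within their errors or near them in the sums. Over single oocytes the 1 endothelial and blood marker tested was at 0.30, with an unadjusted p under 0.05 in edgeR's test, and was not called. Without the 70-79 μm sum of replicate 2, GATA4 was at −1.08 and COL14A1 at −0.28. CLDN5, a junction protein of endothelium, was at 2.88 ± 1.26, and at −0.54 without the 70-79 μm sum of replicate 2, with counts in 5 of 23 oocytes of 70-79 μm, 3 of 25 of 60-69 μm and 8 of 24 of 80-89 μm.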

How the data were processed

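Sequence reads of single bovine oocytes were trimmed by the authors with Trim Galore 0.6.6, aligned with HISAT2 to ARS-UCD1.2 and counted per gene in SeqMonk, and what they deposited are raw counts, with 1 column for an oocyte. The counting of multiply aligned reads, of strand and of genes that overlap is not given in the sources used here. Counts of a gene ID on more than 1 line were summed, which gave 21218 gene IDs, of which 3593 could be paired with a symbol through the supplementary tables of the study, mostly symbols early in the alphabet, so the lists are read in part. Oocytes kept by the study were summed per size group and replicate into 16 sums, from 4467434 to 46545515 counts. They were fitted with edgeR 4.0.16 in R 4.3.3 (TMM, filterByExpr at its limits of 10 counts and 15 in total, the quasi-likelihood test, 8 size groups, and a block for replicate), with the contrast 70-79 μm minus the mean of 60-69 and 80-89 μm. P-values were adjusted over all genes tested (Benjamini-Hochberg) and called at 0.05. The replicate is a shared sequencing batch, and sums of 1 replicate deviated together (correlations of 0.398 to 0.694 over 28 pairs). CPM of sums and of single oocytes use the plain total, while the fitted differences use TMM-scaled totals. Single oocytes as units, DESeq2 1.42.0, ComBat-seq (sva 3.50.0), other scalings, filters and sets of samples were alternatives. The fit was tested on simulated data. Totals and detected genes were compared by a permutation test (100000 resamples within replicate, two-sided). The members and gene lists were chosen with earlier results of these data known.

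Genes were named by a rule: the 6 with a symbol and the smallest unadjusted p in each direction, the 2 smallest of each list, and BMP15, BTG4, CALB1, ARRDC2 and CTSC. Genes called over single oocytes were added after their values were seen. Intervals cover the spread between sums or oocytes only.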

Additional observations from a re-analysis of the deposited data

Results flagged for a closer look

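Single oocytes that lay far from the rest of their group were sought in the groups of 7 or 8 oocytes of replicate 2, by the ratio of the gap to the group's range. Chance flags about 1 group in 20, and 9 of 72 groups had such an oocyte. In each of the 9 it was the highest oocyte of a neighbouring size group. For COX6C it reached 3255 CPM at 60-69 μm (next 1969), for ATP5F1E 725 CPM at 60-69 μm (next 398), for ATP5ME 217 CPM at 80-89 μm (next 120), for CENPS 569 CPM at 80-89 μm (next 306) and for CALB1 41.9 CPM at 80-89 μm (next 14.1). CHCHD7 had one at 60-69 μm (396 CPM, next 228.8) and one at 80-89 μm (598 CPM, next 316). At 60-69 μm, ENSBTAG00000026085 reached 7990 CPM (next 5265) and ENSBTAG00000015156 reached 846 CPM (next 519). Within replicate 2 none of these genes was called.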

How the results depend on the processing

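With sums, the count of genes called was 0 under RLE scaling, no filter, both flank groups on each side, thinning to 250000 counts per oocyte, all 179 oocytes, gene IDs on 1 line, the deepest oocyte of each of the 6 sums left out, and each sum left out in turn (range 0 to 0, with 306 to 740 genes at an unadjusted p under 0.05). Without the replicate block it was also 0, with 59 in place of 572 at an unadjusted p under 0.05, and the block changed no call. DESeq2 called 2 genes, and the 6 sums of the 3 groups fitted alone called 5, of which COX6C was the 1 list member. Over single oocytes the count was 75, and 18 in replicate 1, 0 in replicate 2, 47 with ComBat-seq, 35 without the deepest 70-79 μm oocyte, 56 with the total count as a term and 53 when thinned. Past both neighbours it was 0 in the sums and 18, 6, 0, 9, 8, 11 and 15 in the same order, and list members called were 0 in the sums and 6, 2, 0, 5, 4, 6 and 6. These were not the same members: CDC23 (higher) replaced BAG3 with the total as a term, and CDC23 and ACO1 (both higher) replaced BAG3 and ATP5ME when thinned. Between 80-89 and 60-69 μm the sums gave 0, DESeq2 24, no filter 19, the 6 sums 18, thinned sums 6, sums left out in turn 0 to 21 (21 without either sum under 60 μm), and single oocytes 642, 828 in replicate 1, 0 in replicate 2, 559 with ComBat-seq, 811, 744 and 367 without the deepest 70-79 μm oocyte, with the total as a term and thinned. The causes were not tested. Within replicate 2 the median total count was 341316 above that of 80-89 μm, and the median of detected genes was 495.5 above 60-69 μm and 1017 above 80-89 μm, against differences below 0 over both replicates.

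Of 84 named genes, 69 changed sign in no fit that gave them a value. Within replicate 1 alone COPG1 (−0.02), AP2A2 (−0.02), ATG101 (−0.06), BNIP3 (−0.05), COL14A1 (−0.21), ARRDC2 (−0.12), CTSC (−0.22) and CALB1 (0.69) changed sign, and within replicate 2 alone BTG4 (−0.05) and CTSC (−0.09). CTSC was −0.16 over single oocytes, −0.18 with ComBat-seq, −0.23 without the deepest 70-79 μm oocyte, −0.16 with the total as a term, −0.10 thinned, −0.12 without the deepest oocytes, −0.0041 in thinned sums and −0.00072 in all 179 oocytes. ATP6V0A4 was −0.15 in thinned sums, HSD17B1 0.08 without the deepest oocytes, COL14A1 −0.0082 with ComBat-seq and CALB1 2.00 with both flank groups on each side. With sums left out in turn, signs changed for BMP15 (−0.07 to 0.70), ATG101 (−0.01 to 0.54), BNIP3 (−0.02 to 1.09), CAMKK1 (−0.09 to 4.65), GATA4 (−1.08 to 1.3), COL14A1 (−0.28 to 0.59), CLDN5 (−0.54 to 4.28), CALB1 (−1.5 to 0.74), ARRDC2 (−0.29 to 0.86) and CTSC (−0.20 to 0.28). A difference not called with 2 sums per group is not shown to be absent.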

Other observations

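Subunits of cytochrome c oxidase and ATP synthase differed in where their lowest median lay among all 8 size groups. ATP5ME had it at 70-79 μm in both replicates, 17.7 and 55.7 CPM, with 19.9 CPM above 120 μm and 57.3 CPM at 100-109 μm the next lowest. ATP5F1E had it at 70-79 μm in replicate 1 (86.2 CPM) and at 100-109 μm in replicate 2 (146.2 CPM). COX7A2 had it at 90-99 μm in replicate 1 (49.2 CPM, against 50.1 at 70-79 μm) and at 100-109 μm in replicate 2 (75.0 CPM). In replicate 1 the median COX6C level of single oocytes was 604 CPM below 60 μm, 596 at 60-69 μm, 223.6 at 70-79 μm, 509 at 80-89 μm, 298.9 at 90-99 μm, 255 at 100-109 μm, 816 at 110-119 μm and 243.5 above 120 μm. In replicate 2 it was 1049, 1246, 807, 1836, 1122, 804, 1071 and 835 CPM in the same order. The 25 paired members of cytochrome c oxidase and ATP synthase together had their lowest median at 70-79 μm in replicate 1 (5348 CPM), and in replicate 2 at 100-109 μm (5103 CPM, against 5626 at 70-79 μm). CENPS had medians of 65.1 CPM at 70-79 μm, 71.2 at 90-99 μm, 59.3 at 100-109 μm, 153 at 110-119 μm and 59.0 above 120 μm in replicate 1.

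Peaks differed in the same way. CEP43 had its highest median of the 8 groups at 70-79 μm in both replicates, 236 and 130.7 CPM. CA2 had a median of 145.9 CPM at 70-79 μm in replicate 1 and higher ones at 90-99 μm (177.3 CPM), 100-109 μm (207.1 CPM), 110-119 μm (210.5 CPM) and above 120 μm (209.8 CPM), and in replicate 2 its median was highest at 70-79 μm (116 CPM). These differences between medians were not tested.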
